A study of Homo sapiens with 30 samples.

Results

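NUPR1 and 9 genes of the integrated stress response (ATF4, DDIT3, TRIB3, ASNS, CHAC1, PSAT1, PHGDH, SLC7A11 and VLDLR) were followed across all groups of a nascent transcription study of A549 cells, a human lung adenocarcinoma line. They are 10 of the 58780 genes in the deposited count table, and all 10 passed the filter on low counts that left 22919 genes for testing. NUPR1 was selected on its own measured change, the rise after 7 days of MS023 over untreated cells, so that comparison and the others that use the 7-day MS023 libraries without Dex are given below as descriptions only. The other 9 genes belong to the same pathway by name, and which measured values entered their choice is not recorded. Every comparison with untreated cells shares its control libraries with the comparison on which NUPR1 was chosen. The comparisons made under dexamethasone use none of those libraries.

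The assay was PRO-seq, a precision run-on method. Polymerases already on a gene add labelled nucleotides to their transcript after the cell membrane has been opened, and reads of that RNA count polymerases at work rather than stored mRNA. The 30 libraries form 15 groups of 2 replicates, each from A549 cells in 0.01% DMSO. The groups are untreated cells (labelled as kept 15 min in DMSO), dexamethasone (Dex, a synthetic glucocorticoid, 100 nM) for 15 min or 3 h, and Dex for 3 h together with either inhibitor. The inhibitor groups are GSK591 (a PRMT5 inhibitor, 1 µM) or MS023 (an inhibitor of Type I protein arginine methyltransferases, 1 µM) alone for 2, 4 or 7 days, and either inhibitor during 7 days with Dex added at the end (15 min or 3 h). No group serves as a vehicle control kept for days, and nothing in the labels says that the 2 replicates came from separate cultures on separate days, so p-values measure only the spread between these samples.

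The integrated stress response begins when one of several kinases, sensing amino acid shortage, misfolded protein in the endoplasmic reticulum, double-stranded RNA or haem shortage, phosphorylates the translation factor eIF2. General protein synthesis then falls while translation of the ATF4 mRNA rises. ATF4, a bZIP transcription factor, binds with C/EBP partners to a composite element and induces genes of amino acid supply, redox balance and cell fate. Because much of this control acts on translation, PRO-seq sees the transcription of ATF4 and of its target genes but not the amount of ATF4 protein. NUPR1 encodes a small, disordered chromatin-associated protein that is itself known as a stress-induced gene and as an ATF4 target.

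The libraries held 8441211 to 13069598 counts, of which 58.7% to 78.7% fell on mitochondrial genes, and 2541528 to 3957508 counts lay outside mitochondrial DNA. The mitochondrial share moved with one treatment. It was 58.7% to 64.2% in the libraries with 7 days of MS023, 69.8% to 78.7% in those with 7 days of GSK591 and 69.2% to 76.0% in untreated cells and Dex alone. The 2 libraries each of MS023 alone had 62.2% and 65.0% at 2 days, and 64.9% and 66.1% at 4 days. Those of GSK591 alone had 71.4% and 68.5% at 2 days, and 69.5% and 70.3% at 4 days. Replicates of a group correlated at 0.953 to 0.981 across genes of at least 5 mean CPM, except Dex with MS023 at 0.913, where replicate 2 had 61.0% mitochondrial counts and replicate 1 had 71.2%. Epithelial and A549 marker genes were present in all libraries (KRT8 had 1363 to 5212 counts and AKR1B10 1117 to 2588), and CDKN2A and CDKN2B, which this line lacks, had at most 3 counts. The blood markers PTPRC, CD3E and LYZ had at most 5 counts.

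Target genes of ATF4 often carry a C/EBP-ATF response element near their start, and short stretches of the 2 genes with a match to its core are shown. Both were called higher with MS023 in some comparisons below, as was TRIB3, which has no match in its windows. RefSeq windows (build GRCh38.p14, 250 bases before to 50 after a start) exist in the table used here for 8 of the 10 genes, with 13 windows in all. NUPR1 and SLC7A11 have none there. The core TGATGNAA, searched on both strands (TTNCATCA on the other), occurs in 3.62% of all 35116 windows and in 2 of these 13. Capitals mark the matched bases.
ASNS: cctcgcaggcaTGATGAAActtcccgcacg
CHAC1: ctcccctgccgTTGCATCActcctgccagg
The ASNS stretch, written along the minus strand, is chr7:97872458-97872487, with the match starting 68 bases before the RefSeq start. The CHAC1 stretch is chr15:40953251-40953280 on the plus strand, with the match 209 bases before the start. GENCODE 29 annotates an exon of a longer transcript at both places. A match is a description of the letters and says nothing on binding.

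The 10 genes spanned a wide range of transcription in untreated cells. Per kilobase of exon, on the scale of TMM-scaled CPM (counts divided by the scaled library size), ATF4 stood highest at 41.1, followed by TRIB3 at 8.47, SLC7A11 at 4.75, DDIT3 at 4.44 and CHAC1 at 3.76. PSAT1 (1.93), PHGDH (1.15), VLDLR (1.09), NUPR1 (0.94) and ASNS (0.80) were lowest. Whether reads in introns were counted is not given in the sources used here, so this order holds only with exon length as the divisor. SLC7A11 spans 78253 bases with 9645 of exon, and NUPR1 6467 with 5674 of exon. Counts were small for some genes. DDIT3 had 18 to 63 counts per library, PSAT1 24 to 65 and ASNS 26 to 120, against 682 to 1388 for ATF4.

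NUPR1 varied most of the 10 genes, by 15.0-fold between its lowest and highest group means. The next widest, SLC7A11, varied by 4.13-fold and the remaining 8 by 1.79-fold to 2.99-fold. NUPR1 lies on chromosome 16 (ENSG00000176046.8, hg38, 28532708 to 28539174, minus strand). The untreated libraries gave 4.89 and 5.74 CPM (44 and 57 counts) and those with Dex for 15 min gave 4.54 and 5.20, which overlap. Dex for 3 h gave 10.8 and 7.08, Dex with GSK591 9.39 and 9.47, and Dex with MS023 8.20 and 7.73. Dex for 3 h alone overlapped both groups with an inhibitor, Dex with MS023 lay below Dex with GSK591 in both libraries, and all 6 libraries lay above the 4 just named.

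GSK591 alone for 2, 4 and 7 days gave NUPR1 values of 9.41 and 13.6 CPM, 12.3 and 10.5, then 11.2 and 17.2. With Dex for 15 min after 7 days of GSK591 they were 13.5 and 11.2. These 4 groups overlapped one another. MS023 alone gave 17.6 and 18.6, 24.3 and 22.8, then 38.6 and 44.2 at the same times, without overlap between them. With Dex after 7 days, GSK591 reached 24.0 and 23.3 at 3 h, overlapping MS023 at 4 days. MS023 for 7 days gave 32.1 and 39.3 with Dex for 15 min and 70.5 and 75.2 with Dex for 3 h, the highest pair of all 15 groups.

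**Figure D1:**
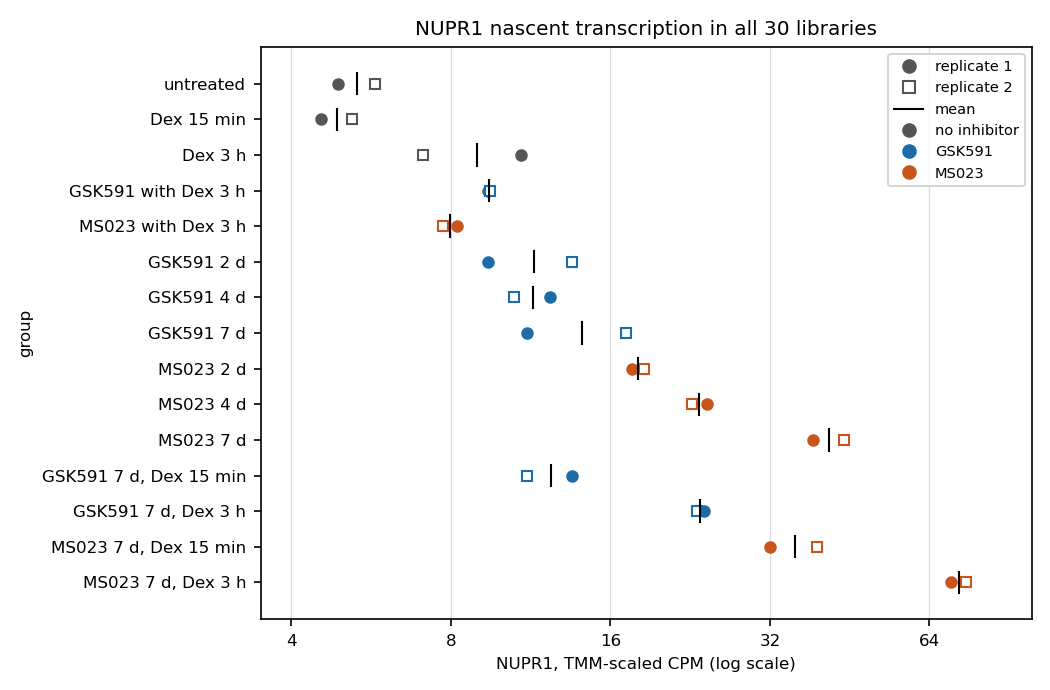
NUPR1 in every library, as TMM-scaled CPM on a log axis, by group (circle: replicate 1, square: replicate 2, line: mean; grey: no inhibitor, blue: GSK591, orange: MS023). The untreated and Dex 15 min libraries lie between 4.54 and 5.74, the 7-day MS023 libraries with Dex for 3 h at 70.5 and 75.2.

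The members were chosen with earlier results of these data known, and no control was kept for days. NUPR1 was higher with both inhibitors in libraries outside the comparison on which it was selected. After 7 days of MS023 it was higher than with Dex alone by 2.87 ± 0.18 on the log2 scale (SE) at 15 min of Dex (7.31-fold, edgeR adjusted p = 7.1e-16) and by 3.01 ± 0.16 at 3 h (8.05-fold, adjusted p = 4.6e-18). After 7 days of GSK591 the differences were 1.33 ± 0.21 (2.51-fold, adjusted p = 6.1e-06) and 1.39 ± 0.18 (2.61-fold, adjusted p = 1e-07). All treated libraries lay above all of their controls in these 4 comparisons, and the calls held in all the alternatives run, where the MS023 values ran from 2.71 to 3.41 at 15 min and from 2.75 to 3.88 at 3 h. The upper ends come from scaling by library totals, a choice that raised the median of all genes by 0.55 and 0.85 in these MS023 comparisons. The share of mitochondrial counts moved with MS023 as given above. Leaving mitochondrial and ribosomal RNA genes out of the fit changed none of the members' calls. Both fits used TMM, which already adjusts for a share taken up by a few genes, so whether the shift matters was not tested.

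The rise was present by 2 days and at 4 days it was larger with MS023 than with GSK591. Against untreated cells NUPR1 was higher by 1.12 ± 0.21, 1.097 ± 0.20 and 1.39 ± 0.20 after 2, 4 and 7 days of GSK591 (adjusted p = 0.00059, 9.1e-05 and 2.1e-06). After 2 and 4 days of MS023 it was higher by 1.76 ± 0.19 and 2.14 ± 0.18 (adjusted p = 7.1e-09 and 5.7e-12). Without replicate 2 of the 2-day GSK591 group that difference was 0.81 (adjusted p = 0.093), and the other 4 calls held in every alternative run. At 7 days of MS023 the log2 value was 2.95, the change on which the gene was selected. The authors' deposited table gives 3.03 for that comparison.

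The 2 inhibitors, compared directly at matched times, differed in NUPR1. GSK591 gave less than MS023 by 1.04 ± 0.16 on the log2 scale at 4 days (2.06-fold, adjusted p = 1.2e-05), by 1.54 ± 0.16 after 7 days with Dex for 15 min (2.91-fold, adjusted p = 1.5e-09) and by 1.62 ± 0.15 with Dex for 3 h (3.08-fold, adjusted p = 3e-11). These 3 held in every alternative run. At 2 days the difference was 0.64 ± 0.17 (1.56-fold, adjusted p = 0.029), and it fell short of the threshold in DESeq2 (adjusted p = 0.12) and without replicate 1 of GSK591 or either replicate of MS023, with log2 values of -0.41, -0.67 and -0.60.

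Of the 10 genes, NUPR1 and CHAC1 were the ones called higher in all 9 tested comparisons of an inhibitor given for days. With GSK591 against untreated cells, 2 of the 10 genes were called at 2 days (5.64% of all genes tested were called there), 4 at 4 days (17.2%) and 3 at 7 days (13.2%). With MS023 the counts were 4 at 2 days (10.4%) and 4 at 4 days (14.2%). Against Dex for 15 min, 7 days of GSK591 gave 3 (15.3%) and 7 days of MS023 gave 3 (15.3%). Against Dex for 3 h they gave 4 (13.6%) and 4 (11.5%). The calls pointed in both directions, and the median log2 change of the 10 genes was 0.22, 0.05 and 0.14 for GSK591 at 2, 4 and 7 days and 0.39 and 0.12 for MS023 at 2 and 4 days, with medians of all genes from -0.0049 to 0.0045.

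**Figure D2:**
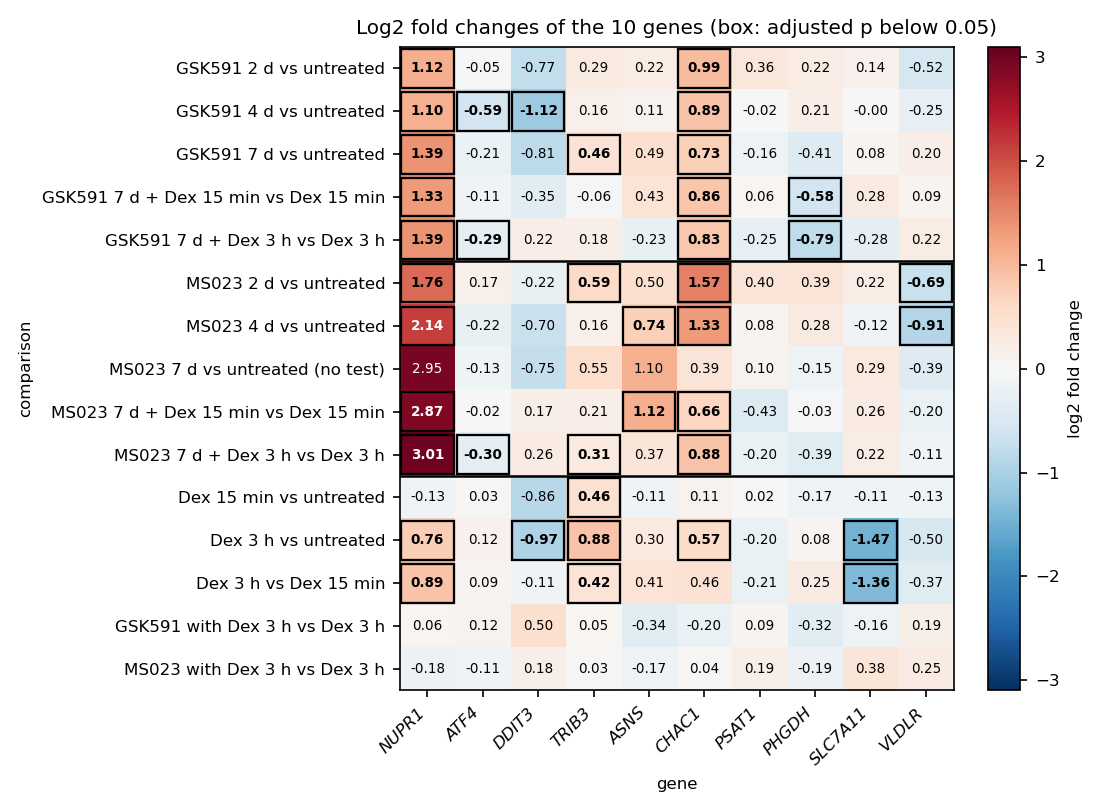
Log2 fold change of each gene (columns) in 15 comparisons (rows), printed in each cell; boxes mark an adjusted p below 0.05 in edgeR. NUPR1 and CHAC1 are boxed in every tested row of days of inhibitor, ATF4 in 3 of them, all lower, and PSAT1 in none; with library totals as scaling the ATF4 difference under MS023 and Dex for 3 h turns to 0.54.

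CHAC1 (ENSG00000128965.12, chromosome 15, 40952962 to 40956519, plus strand) encodes an enzyme that degrades glutathione and is a late target of the ATF4 arm. It gave 6.90 and 8.56 CPM in untreated cells. The values after 2, 4 and 7 days were 14.2 and 16.4, 13.6 and 15.0, then 14.2 and 11.5 with GSK591. With MS023 they were 23.5 and 22.7, 18.5 and 20.5, then 11.7 and 8.69. All libraries with an inhibitor lay above both untreated ones, and the MS023 course ran opposite to that of NUPR1, highest at 2 days and lowest at 7.

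The CHAC1 rise over untreated cells was 0.99 ± 0.17, 0.89 ± 0.17 and 0.73 ± 0.18 on the log2 scale at 2, 4 and 7 days of GSK591 (adjusted p = 0.00025, 0.00014 and 0.0032). It was 1.57 ± 0.16 and 1.33 ± 0.16 at 2 and 4 days of MS023 (adjusted p = 1.1e-09 and 2.5e-08). Under Dex, 7 days of GSK591 raised it by 0.86 ± 0.17 at 15 min and 0.83 ± 0.16 at 3 h (adjusted p = 0.00025 and 0.0002), and MS023 by 0.66 ± 0.17 and 0.88 ± 0.15 (adjusted p = 0.0041 and 6.3e-05). The 7-day GSK591 call was lost without replicate 1 of the untreated group (0.59) or of GSK591 (0.57), and the MS023 call at 15 min of Dex without replicate 2 of Dex alone (0.64) or of MS023 with Dex (0.57). Scaling by library totals ended the calls for 7 days of GSK591 without Dex and with Dex for 15 min, at 0.72 and 0.56.

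**Figure D3:**
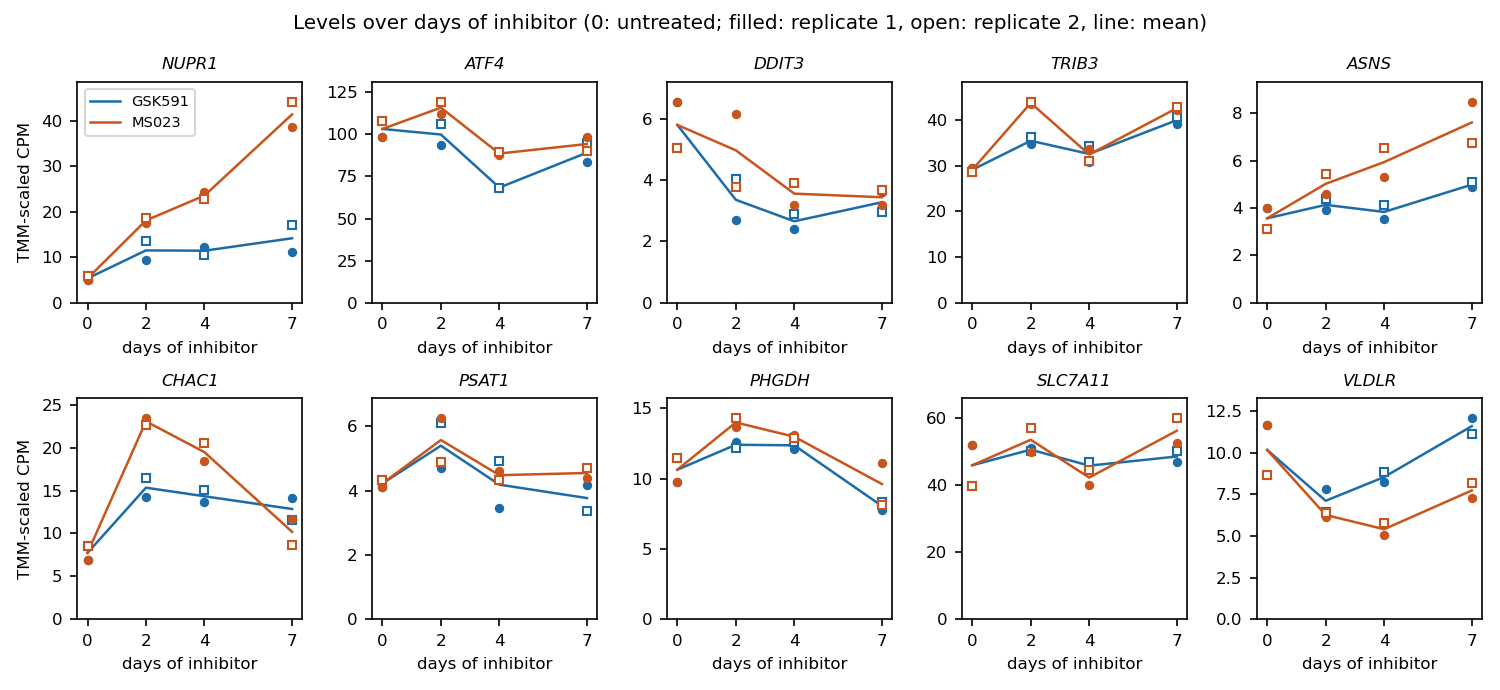
TMM-scaled CPM of each gene (y axes from 0) against days of inhibitor (0: untreated), GSK591 in blue and MS023 in orange, with both replicates and the mean line. NUPR1 is highest at 7 days of MS023 (38.6 and 44.2), while CHAC1 is highest at 2 days (23.5 and 22.7) and lies at 11.7 and 8.69 at 7 days.

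TRIB3 (ENSG00000101255.10, chromosome 20, 362835 to 397559, plus strand) encodes a pseudokinase that is induced by ATF4 and CHOP and restrains both ATF4 and AKT signalling. Its untreated libraries gave 29.5 and 28.7 CPM. GSK591 gave 34.7 and 36.2, 30.7 and 34.4, and 39.2 and 40.7 at 2, 4 and 7 days, and MS023 gave 43.4 and 44.0, 33.8 and 31.1, and 42.3 and 42.9. All these lay above both untreated libraries, but the middle time was the lowest with either inhibitor. TRIB3 was called higher at 7 days of GSK591 (0.46 ± 0.11, adjusted p = 0.0028) and 2 days of MS023 (0.59 ± 0.11, adjusted p = 0.00013). Of these, the MS023 call held in every alternative run, and the GSK591 call was lost with library totals (0.43) and without replicate 2 of the untreated group (0.44, adjusted p = 0.051). Under Dex for 3 h, 7 days of MS023 gave 63.0 and 69.7 against 52.7 and 54.5 (0.31 ± 0.10, adjusted p = 0.037), a call that DESeq2 (adjusted p = 0.061) and 5 other alternatives ended.

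ATF4 and DDIT3, the transcription factors of the group, were called higher in none of the comparisons of an inhibitor with its control when scaled by TMM. Library totals as scaling put ATF4 higher with MS023 at 2 and 4 days (0.84 and 0.52) and under Dex. The same scaling put DDIT3 higher with MS023 under Dex for 3 h (1.11, edgeR adjusted p = 0.0062), where TMM gave 0.26. ATF4 (ENSG00000128272.14, chromosome 22, 39519695 to 39522685, plus strand) gave 98.4 and 108 CPM in untreated cells and 68.4 and 68.4 at 4 days of GSK591, lower by 0.59 ± 0.10 on the log2 scale (adjusted p = 2.4e-05). Library totals as scaling put that difference at -0.18 (adjusted p = 0.57). Under Dex for 3 h it gave 108 and 117 alone, 88.0 and 96.4 after GSK591 and 95.1 and 88.5 after MS023. The differences of -0.29 ± 0.10 and -0.30 ± 0.10 (adjusted p = 0.0498 and 0.0466) were lost when any 1 of the 4 libraries was left out and with DESeq2 (adjusted p = 0.094 and 0.082). The MS023 difference turned to 0.54 (adjusted p = 0.02) with library totals, so no direction is given for ATF4 under MS023.

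DDIT3 (ENSG00000175197.12, chromosome 12, 57516588 to 57521737, minus strand) encodes CHOP, a C/EBP-family factor induced by ATF4. It gave 6.56 and 5.04 CPM in untreated cells and 2.40 and 2.91 at 4 days of GSK591, lower by 1.12 ± 0.29 (adjusted p = 0.004). Its exons overlap MARS and MBD6 on the opposite strand and AC022506.1 on the same strand, and whether the counting used strand is not given in the sources used here. The call was lost with library totals (-0.70) and without replicate 1 of the untreated group (-0.92) or of GSK591 (-0.999). At 2 and 7 days of GSK591 it stood at -0.77 and -0.81 and at 4 days of MS023 at -0.70, short of the threshold (adjusted p = 0.11, 0.054 and 0.067).

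Among the enzymes of amino acid synthesis, ASNS was called in 2 comparisons with MS023, PHGDH in comparisons with GSK591 and PSAT1 in none. ASNS (asparagine synthetase, ENSG00000070669.16, chromosome 7, 97852118 to 97872542, minus strand) gave 4.00 and 3.12 CPM in untreated cells, and 4.595 and 5.45, 5.33 and 6.55, and 8.499 and 6.73 at 2, 4 and 7 days of MS023. It was called higher at 4 days (0.74 ± 0.26, adjusted p = 0.044) and, with Dex for 15 min after 7 days, at 7.35 and 6.91 against 3.95 and 2.60 (1.12 ± 0.25, adjusted p = 0.0015). The first call was lost without any 1 of its 4 libraries and in DESeq2 (adjusted p = 0.15), the second without replicate 2 of Dex alone (0.84, adjusted p = 0.095). With Dex for 3 h after MS023 ASNS gave 4.54 and 6.79 against 4.68 and 4.03, a difference of 0.37 ± 0.26 (95% interval -0.14 to 0.88). The ASNS exons share 1985 bases with the same-strand gene AC079781.5.

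PHGDH and PSAT1 catalyse successive steps of serine synthesis. PHGDH (ENSG00000092621.12, chromosome 1, 119648411 to 119744226, plus strand) gave 8.00 and 11.0 CPM with Dex for 15 min and 6.42 and 6.25 after GSK591 (-0.58 ± 0.20, adjusted p = 0.036). With Dex for 3 h it gave 9.67 and 12.9 alone and 6.29 and 6.76 after GSK591 (-0.79 ± 0.20, adjusted p = 0.0037). The first was lost without Dex 15 min replicate 2 (-0.34), without either GSK591 library (-0.61 and -0.57), in DESeq2 (adjusted p = 0.15) and with only the compared groups (adjusted p = 0.13). The second was lost without Dex 3 h replicate 2 (-0.57) and with library totals (adjusted p = 0.081). After MS023 the same differences were -0.03 and -0.39, short of the threshold. PSAT1 (ENSG00000135069.13, chromosome 9, 78297143 to 78330093, plus strand) stayed between 2.21 and 6.26 CPM and was called in none of the 25 comparisons with TMM. Library totals as scaling called it higher at 2 and 4 days of MS023 (1.07 and 0.83). That scaling also called it lower in GSK591 against MS023 under Dex for 3 h (-0.89).

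VLDLR (ENSG00000147852.15, chromosome 9, 2621834 to 2660053, plus strand), a lipoprotein receptor, was called lower at 2 and 4 days of MS023, though not with library totals as scaling. The untreated libraries gave 11.7 and 8.66 CPM, those with MS023 6.16 and 6.37 at 2 days and 5.05 and 5.77 at 4 days, without overlap. The log2 differences were -0.69 ± 0.20 and -0.91 ± 0.20 (adjusted p = 0.021 and 0.0011). Without untreated replicate 1 they were -0.47 and -0.68, both short of the threshold, and without either MS023 library the 2-day call was lost too (-0.68 and -0.72). With library totals the differences were -0.01 and -0.15, and that after 7 days of MS023 under Dex for 3 h, not called at -0.11, became 0.73 (adjusted p = 0.024). VLDLR-AS1 overlaps its exons on the opposite strand over 738 bases.

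**Figure D4:**
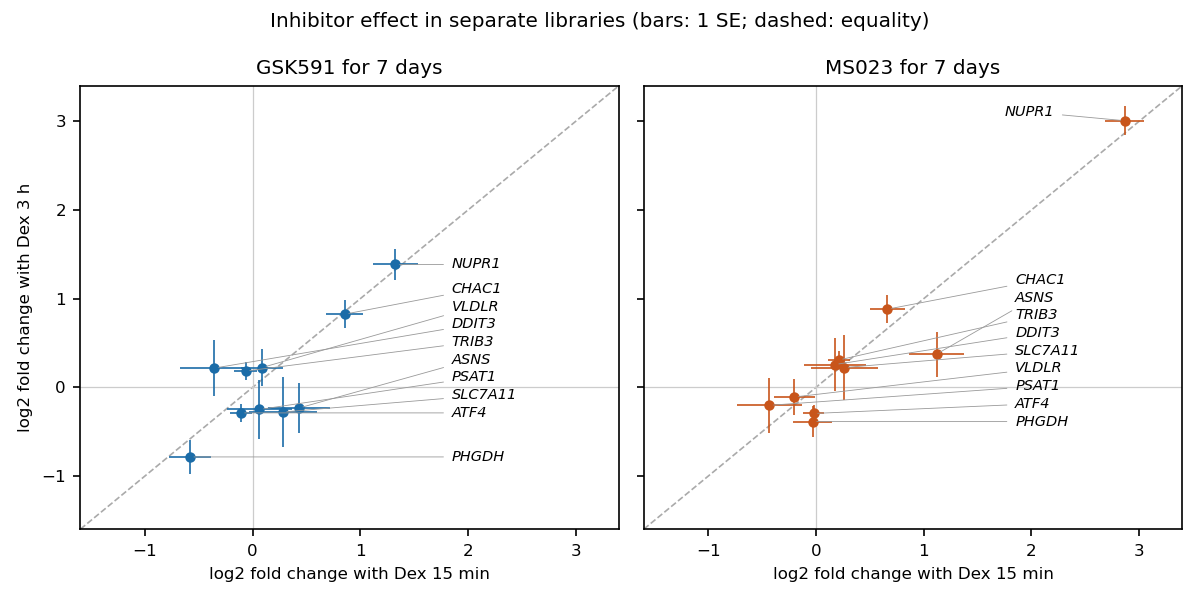
Log2 fold change of the 10 genes after 7 days of GSK591 (left) or MS023 (right), with Dex for 15 min (x axis) against Dex for 3 h (y axis); bars are 1 SE and the dashed line marks equality. The 2 axes use separate libraries; NUPR1 lies at 2.87 and 3.01 with MS023 and at 1.33 and 1.39 with GSK591.

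Dex alone changed up to 5 of the 10 genes. After 15 min 1 gene was called (1.26% of all genes tested), TRIB3, and after 3 h 5 (10.5%), with NUPR1, TRIB3 and CHAC1 higher and DDIT3 and SLC7A11 lower. At 3 h against 15 min, 3 were called without inhibitor (10.8%), 3 after 7 days of GSK591 (14.2%) and 4 after 7 days of MS023 (12.9%). NUPR1 and TRIB3 were higher and SLC7A11 lower in all 3 of these, and CHAC1 was called higher after MS023.

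NUPR1 at 3 h of Dex was 0.76 ± 0.21 above untreated cells (1.69-fold, adjusted p = 0.014) and 0.89 ± 0.22 above 15 min of Dex (1.86-fold, adjusted p = 0.0038). The Dex 3 h replicates differed (10.8 and 7.08 CPM), and without replicate 1 these values were 0.41 and 0.54 (adjusted p = 0.42 and 0.25). Leaving out untreated replicate 1 or Dex 15 min replicate 1 also ended them, at 0.65 and 0.80. Library totals ended the second, at 0.71. After 7 days of inhibitor, 3 h of Dex was above 15 min by 0.95 ± 0.17 with GSK591 (1.93-fold, adjusted p = 5.8e-05) and by 1.03 ± 0.14 with MS023 (2.04-fold, adjusted p = 2.2e-07), which held in every alternative run.

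The Dex step of NUPR1 was not shown to differ with an inhibitor. The difference between the step after inhibitor and the step without it was 0.06 ± 0.28 for GSK591 (95% interval -0.51 to 0.63, adjusted p = 0.98) and 0.14 ± 0.26 for MS023 (-0.38 to 0.66, adjusted p = 0.93). None of the 10 genes was called in the interaction with GSK591 (0.0305% of all genes, 7 genes, with 1866 at an unadjusted p below 0.05) or with MS023 (0.0349%, 8 genes, with 1797). Of the 10 genes, 0 and 1 had an unadjusted p below 0.05. DESeq2 called none of the 10 either.

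**Figure D5:**
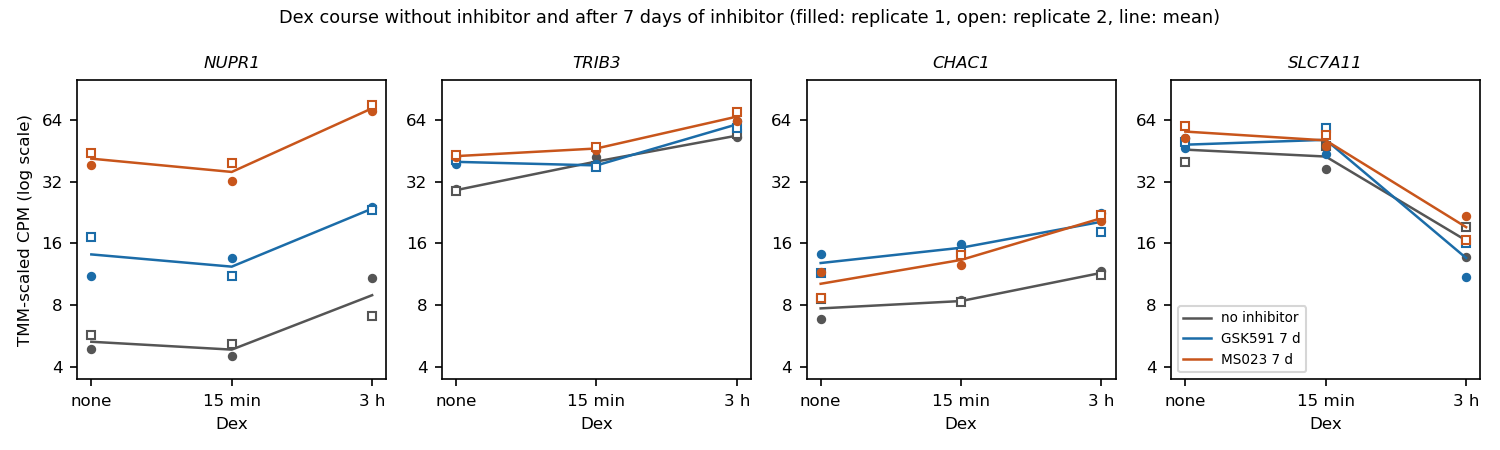
TMM-scaled CPM (log axis, 1 scale for all panels) of NUPR1, TRIB3, CHAC1 and SLC7A11 without Dex, with Dex for 15 min and for 3 h, without inhibitor (grey) and after 7 days of GSK591 (blue) or MS023 (orange); points are replicates and lines join means. The 3 NUPR1 lines run at separate heights with like steps to 3 h (0.89, 0.95 and 1.03), and SLC7A11 drops at 3 h in each.

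TRIB3 responded to Dex within 15 min. It gave 42.0 and 38.3 CPM against 29.5 and 28.7 in untreated cells (0.46 ± 0.11, adjusted p = 0.011) and 52.7 and 54.5 at 3 h (0.88 ± 0.11, 1.84-fold, adjusted p = 1.5e-08). The 3 h rise held in every alternative run. The 15 min rise was lost without either untreated library (0.48 and 0.45), without Dex 15 min replicate 1 (0.40) and without the filter on low counts (adjusted p = 0.052). From 15 min to 3 h TRIB3 rose by a further 0.42 ± 0.10 without inhibitor, 0.67 ± 0.11 after GSK591 and 0.52 ± 0.10 after MS023 (adjusted p = 0.005, 5.9e-06 and 0.00018). The first of these ended without replicate 2 of either Dex group (0.35 and 0.39) and with library totals (0.27).

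SLC7A11 (ENSG00000151012.13, chromosome 4, 138164097 to 138242349, minus strand) encodes the cystine importer xCT, which feeds glutathione synthesis and is induced by ATF4 and by the antioxidant factor NRF2. It gave 51.9 and 39.7 CPM in untreated cells, 36.8 and 48.0 at 15 min and 13.8 and 19.3 at 3 h of Dex, with no overlap at 3 h. The fall was 1.47 ± 0.35 on the log2 scale against untreated cells (2.78-fold, adjusted p = 0.012). From 15 min to 3 h the log2 change was -1.36 ± 0.35 without inhibitor, -1.92 ± 0.36 after GSK591 (43.7 and 58.6 to 11.0 and 16.2 CPM) and -1.40 ± 0.33 after MS023 (47.5 and 54.1 to 21.8 and 16.6), with adjusted p = 0.02, 0.0016 and 0.0086.

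These SLC7A11 falls kept their direction in every alternative run, with log2 values between -2.21 and -1.13, but only that after GSK591 kept its call in all. Leaving out untreated replicate 1 or Dex 3 h replicate 1 ended the call against untreated cells (-1.27 and -1.24). Without inhibitor the step from 15 min ended without Dex 15 min replicate 2 (-1.16) or either Dex 3 h library (-1.13 and -1.62), and after MS023 without replicate 2 of either group (-1.29 and -1.22). Its spread was wide, since Dex with MS023 gave 10.6 CPM in replicate 1 and 31.7 in replicate 2, the library that stood apart above. The authors' deposited table lists -2.67 for Dex for 3 h against untreated cells, from a mean normalised signal of 1642 where the counts used here were 97 to 827, so the 2 values do not rest on the same counting of the gene. SLC7A11-AS1 overlaps its exons on the opposite strand over 865 bases.

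CHAC1 gave 11.8 and 11.2 CPM at 3 h of Dex against 6.90 and 8.56 in untreated cells (0.57 ± 0.18, adjusted p = 0.029). That call was lost in DESeq2 (adjusted p = 0.098), with library totals and without untreated replicate 1 or either Dex 3 h library, at 0.43 to 0.61. After MS023 CHAC1 rose by 0.68 ± 0.15 from 15 min to 3 h (12.6 and 14.1 to 20.6 and 21.9, adjusted p = 0.00074), which held in every alternative run. DDIT3 fell to 3.08 and 2.81 CPM at 3 h (-0.97 ± 0.29, adjusted p = 0.022), lost in DESeq2 (adjusted p = 0.1), with library totals (-0.80) and without untreated replicate 1 (-0.77) or either Dex 3 h library (-1.04 and -0.90).

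Inhibitor given together with Dex for only 3 h left the 10 genes without a call. GSK591 gave 0 (0.0% of all genes in edgeR, 0 genes, with 1306 at an unadjusted p below 0.05, none of them among the 10) and MS023 gave 0 (0.196%, 45 genes, with 3222 at an unadjusted p below 0.05, none of them among the 10). For NUPR1 the differences from Dex alone were 0.06 ± 0.20 (95% interval -0.33 to 0.45) and -0.18 ± 0.20 (-0.59 to 0.22), with upper ends below the intervals after 7 days of inhibitor under Dex for 3 h (1.03 to 1.74 and 2.68 to 3.34). Without Dex with MS023 replicate 1, SLC7A11 was called higher there at 0.93 (adjusted p = 0.041), which rests on replicate 2 alone. DESeq2 called none of the 10 in either comparison.

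Compared with MS023 at the same time, GSK591 gave 2 called genes at 2 days (2.69% of all genes), NUPR1 and CHAC1, both lower. At 4 days it gave 3 (6.03%), NUPR1 and ATF4 lower and VLDLR higher. With Dex for 15 min after 7 days it gave 2 (15.6%), NUPR1 and PHGDH lower, and with Dex for 3 h 1 (11.1%), NUPR1. Outside NUPR1 these were CHAC1 at -0.59 ± 0.15, ATF4 at -0.37 ± 0.10, VLDLR at 0.66 ± 0.20 and PHGDH at -0.55 ± 0.19 (adjusted p = 0.021, 0.016, 0.039 and 0.043). Each of these 4 was lost when any 1 of its 4 libraries was left out.

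Along the time course, 1 of the 10 genes was called from 2 to 4 days of GSK591 (3.39% of all genes), ATF4. From 4 to 7 days 2 were called (8.29%), ATF4 higher and PHGDH lower. With MS023, 2 were called from 2 to 4 days (4.91%), ATF4 and TRIB3, both lower. ATF4 went from 93.8 and 106 CPM at 2 days of GSK591 to 68.4 and 68.4 at 4 days (-0.55 ± 0.10, adjusted p = 0.00058) and back to 83.4 and 95.01 at 7 days (0.38 ± 0.10, adjusted p = 0.013), a rise that library totals turned to -0.07. With MS023 it went from 112 and 120 to 87.6 and 89.6 (-0.39 ± 0.10, adjusted p = 0.015). The later rise was lost without either library of 4 days (0.40 and 0.38) or replicate 2 of 7 days (0.29). The GSK591 fall was lost without GSK591 2 days replicate 2 (-0.45) and the MS023 fall without any 1 of its 4 libraries. TRIB3 with MS023 changed by -0.43 ± 0.10 from 2 to 4 days (adjusted p = 0.0084), lost without either 2-day library (-0.43 and -0.42) or replicate 2 of 4 days (-0.37). PHGDH went from 12.1 and 12.6 CPM at 4 days of GSK591 to 7.79 and 8.31 at 7 days (-0.62 ± 0.19, adjusted p = 0.028), lost without any 1 of its 4 libraries. NUPR1 itself changed by 0.38 from 2 to 4 days of MS023 (adjusted p = 0.15).

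The other genes of the pathway were read from 7 lists of 85 genes, of which 83 were tested and CBS was not analysed here. With Dex for 3 h, 7 days of GSK591 called 16 of the 83 (7 higher and 9 lower, 19.3% against 13.6% of all genes) and MS023 called 8 (5 higher and 3 lower, 9.64% against 11.5%). Among 9 other ATF4 and CHOP targets, GSK591 gave 4 higher and 2 lower (median 0.35) and MS023 4 higher and 1 lower (median 0.44), with medians of all genes at 0.01 and 0.00. GDF15, a stress-induced cytokine, gave 52.7 and 55.0 CPM after GSK591 and 51.0 and 54.8 after MS023 against 33.3 and 36.3 (0.63 ± 0.12 and 0.61 ± 0.12, adjusted p = 0.00017 and 0.00035). VEGFA, the angiogenic factor, was higher by 0.56 ± 0.10 and 0.47 ± 0.10 (adjusted p = 0.00012 and 0.0012). DDIT4, an mTORC1 inhibitor that is also a glucocorticoid target, was lower after GSK591 by 0.61 ± 0.10 on the log2 scale (adjusted p = 1.8e-05), and STC2, a secreted glycoprotein, was higher after MS023 by 0.44 ± 0.14 (adjusted p = 0.028).

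Genes of amino acid supply were called in both directions. Of 16 ATF4 targets in amino acid and one-carbon metabolism, GSK591 gave 3 higher and 0 lower at 2 days (5.64% of all genes were called there). It gave 2 higher and 4 lower at 4 days (17.2%) and 1 higher and 3 lower at 7 days (13.2%). MS023 gave 3 higher and 0 lower at 2 days (10.4%) and 3 higher and 1 lower at 4 days (14.2%). With Dex for 15 min after 7 days, GSK591 gave 1 higher and 2 lower (15.3%) and MS023 3 higher and 0 lower (15.3%). With Dex for 3 h, GSK591 gave 0 higher and 4 lower (13.6%, list median -0.27) and MS023 1 higher and 2 lower (11.5%, list median -0.08). The amino acid transporter subunits SLC7A5 and SLC3A2 were lower after GSK591 by 0.43 ± 0.10 and 0.46 ± 0.10 on the log2 scale (adjusted p = 0.0013 and 0.0011), as was SLC7A1 by 0.74 ± 0.19 (adjusted p = 0.0059). After MS023, SLC38A2 was higher by 0.39 ± 0.11 and SLC7A5 and the aminotransferase gene GOT1 were lower by 0.31 ± 0.09 and 0.78 ± 0.23 (adjusted p = 0.009, 0.022 and 0.017). Of 13 genes, cytosolic aminoacyl-tRNA synthetases and the tRNA exporter XPOT, none was called with either inhibitor under Dex for 3 h, at medians of 0.10 and 0.15. At 2 days of MS023 against untreated cells 1 of the 13 was called lower (10.4% of all genes called, list median -0.13).

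Calls in 3 further lists are given for Dex for 3 h, where 13.6% (GSK591) and 11.5% (MS023) of all genes were called. Of 12 sensors and eIF2 factors, GSK591 with Dex for 3 h gave 1 higher, EIF2B2 (0.39 ± 0.13), and 1 lower, PPP1R15A (-0.35 ± 0.12), which directs eIF2 dephosphorylation, and MS023 gave none. At 4 days of GSK591 against untreated cells the sensors gave 2 higher and 1 lower (17.2% of all genes called). Of 5 ATF4 partner and related bZIP factors, GSK591 with Dex for 3 h gave 1 lower, CEBPG (-0.49 ± 0.13), and MS023 none. GSK591 alone gave 2 higher and 0 lower at 4 and at 7 days, where 17.2% and 13.2% of all genes were called. Of 16 genes of the ATF6 and XBP1 arms of the unfolded protein response, GSK591 with Dex for 3 h gave 2 higher, CRELD2 (0.68 ± 0.16) and ERN1 (0.43 ± 0.14), and MS023 none. Adjusted p for the 5 genes named ran from 0.003 to 0.037.

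Several NRF2 targets, a class to which SLC7A11 is also known to belong, fell with Dex. Of 12 tested, 6 were lower and 0 higher at 3 h of Dex against untreated cells (median -0.59, with 10.5% of all genes called). From 15 min to 3 h, 6, 7 and 8 were lower without inhibitor, after GSK591 and after MS023 (medians -0.81, -0.92 and -0.94). Of all genes 10.8%, 14.2% and 12.9% were called there. In these Dex comparisons the medians of all genes were between -0.01 and 0.02. With the inhibitors, the same list gave 0 higher and 2 lower at 4 days of GSK591 (17.2% of all genes called). It gave 2 higher and 2 lower at 4 days of MS023 (14.2%), and 0 higher and 1 lower for GSK591 under Dex for 3 h (13.6%, list median -0.30). OSGIN1, an oxidative stress-induced growth inhibitor, gave 61.6 and 56.5 CPM in untreated cells and 12.1 and 12.7 at 3 h (-2.25 ± 0.12, adjusted p = 6.1e-20). GSK591 for 7 days lowered it further under Dex for 3 h, to 6.29 and 8.02 CPM (-0.79 ± 0.15, adjusted p = 0.00015).

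Across the 15 group means of log2 CPM, 5 of 11092 genes of at least 5 mean CPM were nearest to NUPR1 by Pearson's r: LOC112268269 (0.942), FGFR3 (0.922), EBF4 (0.908), TPD52L1 (0.902) and ZNF226 (0.898). Over the 30 libraries in place of the means these were 0.868, 0.824, 0.884, 0.871 and 0.744, and 3 of the 5 were still among the nearest 5. Each group mean rests on 2 libraries, and all share 1 scaling, so the values describe these libraries. Among the members r with NUPR1 was 0.80 for ASNS, 0.61 for CHAC1 and 0.39 for TRIB3, near 0 for SLC7A11 and DDIT3 (0.00 and -0.06) and negative for PHGDH (-0.15), ATF4 (-0.26), PSAT1 (-0.34) and VLDLR (-0.46). EBF4, a transcription factor of the EBF family, gave 3.51 CPM in untreated cells, 15.9 after 7 days of MS023 and 28.6 with Dex for 3 h added, as group means.

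The authors' deposited comparison tables list 9 of the 10 genes, all but PHGDH, and give ASNS no adjusted p. They rest on another counting of genes than the count table, which is not given in the sources used here: the authors' deposited mean normalised signal is 313 for PSAT1 and 2.31 for ASNS, where the counts were 24 to 65 and 26 to 120. Values of the 2 sources are therefore not on 1 footing. Over 56 pairs of gene and comparison that both sources test, 49 had the same call at an adjusted p of 0.05, 5 were called in the authors' table alone, 2 in the counts alone and 0 in opposite directions. The 2 were VLDLR at 2 days of MS023 (-0.69 here and -0.27 in the authors' deposited table) and DDIT3 at 3 h of Dex (-0.97 and -0.32). The 5 were PSAT1 at 2 days of MS023 (0.33 in the authors' deposited table) and at 3 h of Dex (-0.50), ATF4 and DDIT3 at 4 days of MS023 (-0.35 and -0.99) and DDIT3 at 15 min of Dex (-0.89).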

How the data were processed

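PRO-seq gene counts of 30 A549 libraries were used as the authors deposited them. Counting used featureCounts 2.0.1 of the Subread package on hg38, per the submitters' processing notes; the feature type and the use of strand are not given in the sources used here. The authors' deposited comparison tables hold log2 fold changes with standard errors, p-values and a mean normalised signal, in DESeq2's columns per the file headers. Gene IDs were named from GENCODE 29, and all 58780 matched.

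Counts were scaled by TMM and tested with edgeR 4.0.16 (R 4.3.3) by the quasi-likelihood test. One fit held all 15 groups, with genes kept by a minimum count of 10 and a minimum total of 15, and Benjamini-Hochberg adjustment over the 22919 genes left. An adjusted p below 0.05 is a call, and errors in the text are standard errors of log2 differences. With 2 replicates against 2, an exact two-sided permutation test cannot go below p = 0.333. On simulated counts for MS023 with Dex for 3 h against Dex for 3 h, with 200 of 22919 genes changed, 4.48%, 62.7% and 87.9% were recovered at log2 sizes of 0.5, 1 and 2, and 6.36% of calls were false. For MS023 at 4 days against untreated cells the same test recovered 8.96%, 52.2% and 90.9%, and 12.2% of calls were false, above the 5% the threshold aims at.

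The members and gene lists were chosen with earlier results of these data known. From each list, at most 3 genes per inhibitor are named, those of smallest adjusted p among the calls at 7 days of inhibitor with Dex for 3 h, at a mean of at least 5 CPM. Alternatives were DESeq2 1.42.0, other scalings, no filter, a replicate block, only the compared groups, no mitochondrial or ribosomal RNA genes, and leaving out each library.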

Additional observations from a re-analysis of the deposited data

Results flagged for a closer look

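The level of 3 genes under an inhibitor differed between time points, by the edgeR contrast between the times themselves. No control was kept for the same days, so time in culture cannot be told apart from the inhibitor. ATF4 changed by -0.55 on the log2 scale from 2 to 4 days of GSK591 and by 0.38 from 4 to 7 days, and by -0.39 from 2 to 4 days of MS023. With library totals as scaling, the ATF4 value from 4 to 7 days was -0.07. PHGDH changed by -0.62 from 4 to 7 days of GSK591. TRIB3 changed by -0.43 from 2 to 4 days of MS023. Each of these calls was lost in at least 1 leave-one-out fit.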

How the results depend on the processing

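Of 60 calls among 250 pairs of gene and comparison, 25 held in every alternative, 33 were lost when at least 1 library was left out, and none reversed then. A direction was compared only where a value passed the threshold in either fit. The replicate block lost 0 calls and gained 0. Deviations between replicates 1 and 2 correlated at a median of 0.0233 over 105 pairs of groups, 23 of them over 0.1, with a range of -0.45 to 0.49. The sign depends on how replicates were numbered, so the median cannot tell whether samples were paired or shared a batch. Leaving out mitochondrial and ribosomal RNA genes also lost 0 and gained 0. DESeq2 lost 13 calls, leaving out the filter lost 9, the fit of only the compared groups 5 (gaining 6) and DESeq2's size factors 1. Library totals lost 20, gained 25 and reversed 7: ATF4 with MS023 at 4 days (0.52) and under Dex for 15 min and 3 h (0.53 and 0.54), VLDLR with MS023 under Dex for 3 h (0.73), CHAC1 and ATF4 in GSK591 against MS023 under Dex for 15 min and 3 h (-0.66 and -0.83), and ATF4 from 4 to 7 days of GSK591 (-0.072). That scaling moved the median of all genes by up to 1.02 with MS023 against untreated cells; the cause was not tested. Counts of called members that moved by over 1.5 times with library totals became 1 at 7 days of GSK591, 7 at 2 and at 4 days of MS023, 2 (GSK591) and 7 (MS023) under Dex for 3 h, 5 for MS023 under Dex for 15 min, 2 for Dex for 3 h, 0 for 3 h against 15 min, 7 and 9 for GSK591 against MS023 under Dex for 15 min and 3 h, and 0, 0 and 1 for GSK591 and MS023 from 2 to 4 days and GSK591 from 4 to 7 days. Without the filter they became 0 for Dex for 15 min and for MS023 from 2 to 4 days, 2 for MS023 under Dex for 3 h and 1 for GSK591 against MS023 under Dex for 15 min and for GSK591 from 4 to 7 days. In DESeq2 they became 3 for Dex for 3 h, 2 for MS023 under Dex for 3 h, 0 for GSK591 against MS023 at 2 days, and 1 for that comparison under Dex for 15 min and for GSK591 from 4 to 7 days. With only the compared groups they became 2, 1 and 4 for MS023 under Dex for 3 h, GSK591 against MS023 under Dex for 15 min and MS023 from 2 to 4 days. Leaving out 1 library gave 0 to 1 called members for Dex for 15 min, 1 to 5 for Dex for 3 h, 1 to 2 for 3 h against 15 min (3 to 4 after either inhibitor), 1 to 2, 3 to 4 and 2 to 3 for GSK591 at 2, 4 and 7 days, 3 to 4 and 2 to 3 for MS023 at 2 and 4 days, 2 to 3 and 1 to 3 for GSK591 and MS023 under Dex for 15 min, 2 to 3 for either under Dex for 3 h, and 0 to 2 for the other comparisons. Counts over all genes moved more: 2645 genes were called for MS023 under Dex for 3 h, and 1258 to 13127 over the alternatives, so the shares of all genes called are read only beside counts of the same fit.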
